A study of Mus musculus with 12 samples.

Results

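The cyclins of the A, B, D and E classes are the regulatory subunits that switch on the cyclin-dependent kinases (CDKs) of the cell division cycle. The 8 genes described here, Ccna2, Ccnb1, Ccnb2, Ccnd1, Ccnd2, Ccnd3, Ccne1 and Ccne2, were chosen by name and are 8 of the 48709 gene intervals in the deposited count table. The libraries were made from total RNA of the cardiogenic region of the mouse embryo, taken by dissection. Embryos were collected on embryonic day 8 (E8), day 8.5 (E8.5), day 9.5 (E9.5) or day 14 (E14), and each stage has 3 libraries, which makes 12 libraries. The labels name no strain, genotype or treatment for any stage, and no stage serves as a treated or control group. No label says whether a library came from 1 embryo or from a pool.

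D-type cyclins pair with CDK4 and CDK6 in G1 and start the phosphorylation of the retinoblastoma protein, which frees E2F factors. E-type cyclins pair with CDK2 at the entry into S phase, cyclin A2 with CDK2 and then CDK1 through S and G2, and B-type cyclins with CDK1 at mitosis. Heart muscle cells of the embryo divide while they beat, and mice that lack all D-type cyclins die as embryos with defects of the heart. Mice that lack both E-type cyclins also die as embryos.

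Promoter windows of Ccnb1, Ccnb2 and Ccne1 are shown first, because the B-type genes differed from each other at E14 and Ccne1 had the lowest level of the 8 there. The sequences are those of RefSeq on GRCm38.p6, 5′ to 3′ along the gene, with 250 bases before and 50 bases after the annotated start. All 3 genes lie on the minus strand, with the windows at chr13:100786437-100786736 (Ccnb1), chr9:70421505-70421804 (Ccnb2) and chr7:38107441-38107740 (Ccne1). Capitals mark letters matched on either strand: CCAAT (the box bound by the factor NF-Y), TTTGAA or TTCGAA, and GGGCGG (the GC box). TTTGAA and TTCGAA are forms of the cell cycle homology region, a promoter element of genes of G2 and mitosis. Other forms of this element were not searched.
Ccnb1: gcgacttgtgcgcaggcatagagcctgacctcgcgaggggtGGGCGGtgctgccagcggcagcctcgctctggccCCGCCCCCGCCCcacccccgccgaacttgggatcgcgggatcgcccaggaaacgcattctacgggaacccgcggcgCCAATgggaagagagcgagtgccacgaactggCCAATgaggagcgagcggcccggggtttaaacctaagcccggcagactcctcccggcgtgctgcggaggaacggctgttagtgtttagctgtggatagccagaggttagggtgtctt
Ccnb2: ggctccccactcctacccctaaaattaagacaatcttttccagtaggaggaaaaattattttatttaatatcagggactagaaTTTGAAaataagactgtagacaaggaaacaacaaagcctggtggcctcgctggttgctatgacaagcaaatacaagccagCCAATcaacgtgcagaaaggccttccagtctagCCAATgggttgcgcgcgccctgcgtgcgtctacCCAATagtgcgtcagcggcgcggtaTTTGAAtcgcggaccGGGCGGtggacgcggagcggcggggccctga
Ccne1: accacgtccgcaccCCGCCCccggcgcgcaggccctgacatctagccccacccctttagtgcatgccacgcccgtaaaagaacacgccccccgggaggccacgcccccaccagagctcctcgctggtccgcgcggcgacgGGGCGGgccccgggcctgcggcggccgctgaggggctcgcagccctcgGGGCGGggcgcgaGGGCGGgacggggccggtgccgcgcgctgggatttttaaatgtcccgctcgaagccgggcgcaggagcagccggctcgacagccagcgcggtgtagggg

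The Ccnb2 window holds 3 CCAAT boxes, at -87, -54 and -21 from the start, each 33 bases from the next, and TTTGAA at -167 and at 5. The Ccnb1 window holds 2 CCAAT boxes, at -99 and -67, which lie 32 bases apart, and 3 GC boxes, of which a pair directly adjoin each other. In the Ccne1 window 4 GC boxes and neither of the other motifs were matched. Of 32851 RefSeq promoter windows of this length, 37.4% hold a CCAAT, 3.37% hold 3 or more, 19.2% hold TTTGAA or TTCGAA, 7.52% hold both kinds and 35.7% hold a GC box. The E2F motifs searched, TTTCCCGC, TTTCGCGC, TTTGCCGC and TTTGGCGC, occur in 2.26% of windows and were not matched in these 3. Windows were also present for Ccnd3, which has 2 annotated starts, so 4 of the 8 genes had one.

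**Figure D1:**
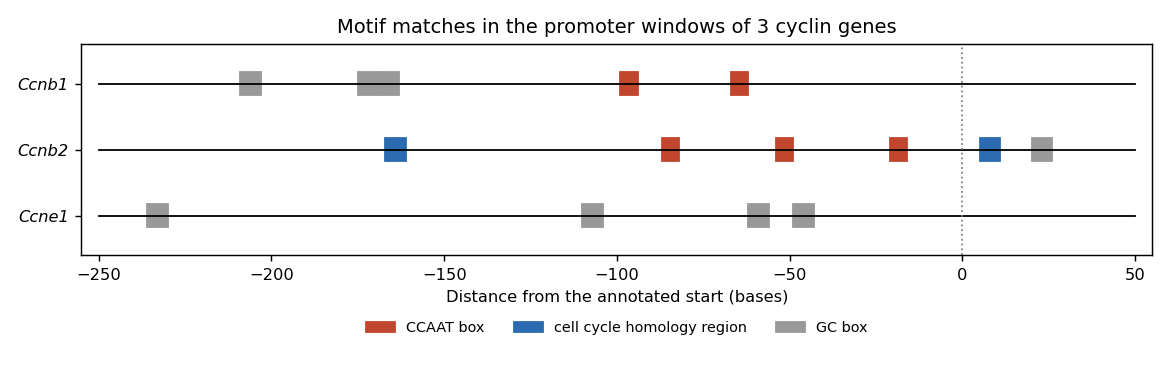
Motif matches in the promoter windows of Ccnb1, Ccnb2 and Ccne1, drawn by distance in bases from the annotated start (0, dotted line), with colour for the kind of motif. Ccnb2 has 3 CCAAT boxes and 2 matches of the cell cycle homology region, searched as TTTGAA or TTCGAA only. Ccnb1 has 2 CCAAT boxes, and Ccne1 has GC boxes alone among the motifs searched.

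Libraries held 56574386 to 122785175 counts, and the 8 cyclin genes together took 0.0581% to 0.0954% of them. The lowest count of any of the 8 in any library was 678, for Ccne1 at E14. Levels are given as CPM, counts scaled to the TMM-adjusted size of the library. Changes are log2 fold changes of the later stage over the earlier one with their standard error (SE), from edgeR's quasi-likelihood test on all 12 libraries. A gene was called where its p, adjusted by Benjamini and Hochberg's method over the 28846 genes tested, was under 0.05.

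One library, E8.5 replicate 3, stood apart from the others on the fourth principal component of log2 CPM, which held 5.1% of the variance. It lay at 77.4 there, and the other 11 lay between -32.5 and 14.9. On the third component E8.5 replicates 1 and 2 lay at -43.1 and -63.1. Replicate 3 lay at 31.2, within the range of the E8 libraries (15.9 to 36.1). The summed level of 8 markers of visceral endoderm and liver was 1660 CPM in E8.5 replicate 3, where all 8 had counts, against 150 and 55.3 CPM in E8.5 replicates 1 and 2. Some of the values that rest on E8.5 replicate 3 are given with and without it, and the others include it. Markers of heart muscle were high throughout: the 8 summed to 20900 to 21600 CPM in E8 libraries, 16800 to 25300 CPM in E8.5 libraries, 18000 to 19800 CPM in E9.5 libraries and 24100 to 26200 CPM in E14 libraries. The heart muscle markers also moved apart. At E9.5 against E8.5 5 were higher and 1 lower, Ttn, with a mean of 3780 CPM, against 9950 CPM at E8.5. At E14 against E9.5 4 were higher and 1 lower, Myl7 (edgeR adjusted p under 0.05). The 8 erythroid markers summed to 543 to 582 CPM in E8 libraries, 701 to 1200 CPM in E8.5 libraries, 4200 to 10700 CPM in E9.5 libraries and 10600 to 35300 CPM in E14 libraries. These did not move together: at E14 against E9.5 Hba-a1, Hba-a2 and Alas2 were higher, and Hbb-y, Hbb-bh1, Hba-x and Klf1 lower (edgeR adjusted p under 0.05). Hba-a1 had a mean of 16700 CPM at E14, against 1420 CPM at E9.5, and Klf1 0.431 CPM at E14, against 11.3 CPM at E9.5. For the 8 markers of epicardium and fibroblasts the sums were 47.8 to 51.7 CPM in E8 libraries, 72.1 to 82.2 CPM in E8.5 libraries, 207 to 415 CPM in E9.5 libraries and 1850 to 1900 CPM in E14 libraries. Endothelial and endocardial markers (8) summed to 854 to 890 CPM at E14, against 487 to 548 CPM at E9.5, and macrophage markers (8) to 50.2 to 60.2 CPM at E14, against 15.3 to 19.4 CPM at E9.5. These marker sums move with stage, their part in the cyclin changes was not tested, and in bulk tissue fewer cells of a type and less RNA per cell cannot be told apart.

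Over the 4 stages 7 of the 8 cyclin genes differed (edgeR adjusted p under 0.05), as did 72.3% of all genes tested. The 8 did not move as a block. Between E8.5 and E9.5 the A and B cyclins, Ccnd1 and Ccnd3 rose. Between E9.5 and E14 the E cyclins and Ccnb1 fell most and Ccna2 and Ccnb2 slightly. The calls of Ccna2 and Ccnb2 were lost in some fits with 1 library left out. Ccnd2 changed by -0.73 in that interval and was not called (edgeR adjusted p = 0.0685). Over the whole span from E8 to E14 Ccnd1 and Ccnd3 ended higher, Ccnb1, Ccne1 and Ccne2 lower, and Ccna2 and Ccnb2 lay near their E8 levels. The Ccnd1 call was lost in many of the alternative fits, and the Ccnd3 call with counts adjusted for gene span.

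**Figure D2:**
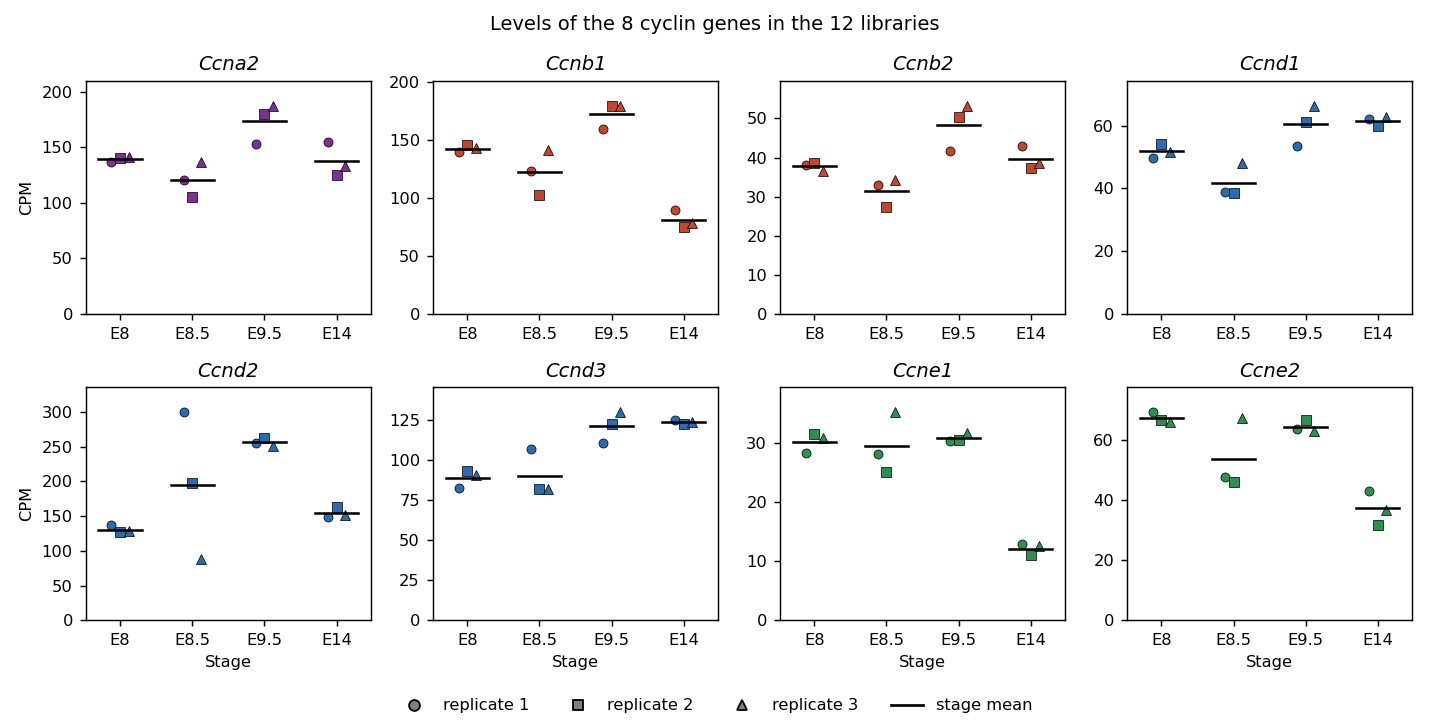
CPM (vertical axis, from 0, scaled separately for each gene) of the 8 cyclin genes in each library at E8, E8.5, E9.5 and E14, with 1 symbol for each replicate and a bar at the stage mean. The 3 E14 libraries of Ccne1 (11 to 12.9 CPM) and of Ccnb1 (74.9 to 89.7 CPM) lie below all others of the same gene, and the E8.5 libraries of Ccnd2 spread from 88.1 to 299 CPM.

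The D-type cyclins, which carry growth signals to CDK4 and CDK6, are given first. Ccnd1 (ENSMUSG00000070348.5, chromosome 7, 144929931 to 144939925, minus strand, GRCm38) had 49.7, 54.2 and 51.7 CPM at E8, 39.0, 38.5 and 48.0 CPM at E8.5, 53.7, 61.3 and 66.3 CPM at E9.5, and 62.0, 59.9 and 62.7 CPM at E14. All E8.5 libraries were below all libraries of the other stages, and the E9.5 and E14 libraries overlapped. Ccnd1 rose at E9.5 against E8.5, by 0.53 ± 0.10 (SE, edgeR adjusted p = 0.00184), and did not pass the test at E8.5 against E8 (-0.31 ± 0.10, edgeR adjusted p = 0.081). Without E8.5 replicate 3, Ccnd1 passed the latter test (-0.46 ± 0.08, edgeR adjusted p = 0.00271). At E14 against E8 it was 0.25 ± 0.10 higher (edgeR adjusted p = 0.0471), and this call was lost with RLE size factors (edgeR adjusted p = 0.0772), with DESeq2 (0.0976) and in each fit without 1 of the E8 or E14 libraries (edgeR adjusted p = 0.0678 to 0.173).

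Ccnd2 (ENSMUSG00000000184.12, chromosome 6, 127125162 to 127152193, minus strand), whose product is the D cyclin of many embryonic and stem cell types, varied more among the E8.5 libraries than the other 7. It had 137, 127 and 128 CPM at E8, 299, 197 and 88.1 CPM at E8.5, 255, 262 and 251 CPM at E9.5, and 149, 163 and 151 CPM at E14. The E8, E9.5 and E14 libraries did not overlap, with E9.5 highest, and the E8.5 libraries held both the highest and the lowest value of all 12. The lowest was E8.5 replicate 3, the library with the highest sum of visceral endoderm markers. Over the 4 stages Ccnd2 was the single cyclin gene that missed the threshold (edgeR adjusted p = 0.0567). All 8 passed it without E8.5 replicate 1 (as did 69.8% of all genes) or 3 (77%) and with the filter of at least 1 CPM in 3 libraries (83.4%). All 8 also passed it without small structural RNA genes (74.2%) and with DESeq2 (60%). At E14 against E9.5 the change of Ccnd2 was -0.73 ± 0.31 (edgeR adjusted p = 0.0685). Fitted on the E9.5 and E14 libraries alone, it fell by 0.76 ± 0.06 on the log2 scale (edgeR adjusted p = 3.1e-05). Without E8.5 replicate 3 the value for E14 against E9.5 was -0.76 (edgeR adjusted p = 0.000197), and that for E8.5 against E8 was 0.89 ± 0.13 (edgeR adjusted p = 0.0013), against 0.57 ± 0.31 (0.244) with it. At E9.5 against E8.5 the change was 0.40 ± 0.31 (edgeR adjusted p = 0.332), 0.08 once replicate 3 of E8.5 was dropped (edgeR adjusted p = 0.681), and 0.85 once replicate 1 of E8.5 was dropped instead (edgeR adjusted p = 0.0241). At E14 against E8 it was 0.24 ± 0.31 (edgeR adjusted p = 0.524), and 0.20 when these libraries were fitted alone (edgeR adjusted p = 0.0117).

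Ccnd3 (ENSMUSG00000034165.16, chromosome 17, 47505051 to 47599691, plus strand), the D cyclin best known from blood cell precursors, had 82.8, 93.4 and 90.6 CPM at E8, 107, 82.0 and 82.1 CPM at E8.5, 111, 123 and 130 CPM at E9.5, and 125, 123 and 124 CPM at E14. All E9.5 and E14 libraries were above all E8 and E8.5 libraries. The rise at E9.5 against E8.5 was 0.43 ± 0.11 (edgeR adjusted p = 0.00829). At E14 against E9.5 the value was 0.03 ± 0.10 (edgeR adjusted p = 0.832). Over the span from E8 to E14 it rose by 0.48 ± 0.11 (edgeR adjusted p = 0.00184). Ccnd3 has by far the longest interval of the 8, and with counts adjusted for gene span the last value was 0.27 (edgeR adjusted p = 0.0824).

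The E-type cyclins open S phase with CDK2 and can replace each other in most mouse cells. Ccne1 (ENSMUSG00000002068.16, chromosome 7, 38097984 to 38107534, minus strand) had 28.2, 31.4 and 30.7 CPM at E8, 28, 25.1 and 35.1 CPM at E8.5, 30.3, 30.4 and 31.7 CPM at E9.5, and 12.9, 11 and 12.5 CPM at E14. The first 3 stages overlapped and E14 lay below all of them. Ccne1 had the largest change of the 8, a fall at E14 of 1.35 ± 0.11 against E9.5 (edgeR adjusted p = 1.73e-06) and of 1.31 ± 0.11 against E8 (edgeR adjusted p = 1.11e-06), to 0.394 and 0.403 of those levels. Its values before that were -0.03 ± 0.11 at E8.5 against E8 (edgeR adjusted p = 0.865) and 0.07 ± 0.11 at E9.5 against E8.5 (edgeR adjusted p = 0.657). The second of these was 0.24, and called, once E8.5 replicate 3 was dropped (edgeR adjusted p = 0.0331).

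Ccne2 (ENSMUSG00000028212.16, chromosome 4, 11191351 to 11204779, plus strand) had 69.2, 66.8 and 65.9 CPM at E8, 47.8, 46.2 and 67.4 CPM at E8.5, 63.8, 66.6 and 63.1 CPM at E9.5, and 43.2, 31.9 and 36.7 CPM at E14. The E14 libraries lay below all others. It fell by 0.79 ± 0.14 at E14 against E9.5 (edgeR adjusted p = 0.000518) and by 0.85 ± 0.14 against E8 (edgeR adjusted p = 0.000208). E8.5 replicate 3 was level with the E8 libraries while replicates 1 and 2 were below them. Without that library the value for E8.5 against E8 was -0.55 (edgeR adjusted p = 0.00298), against -0.32 ± 0.14 (0.153) with it, and the value for E9.5 against E8.5 was 0.49 (edgeR adjusted p = 0.00251), against 0.26 ± 0.14 (0.156) with it.

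Ccna2 (ENSMUSG00000027715.9, chromosome 3, 36564865 to 36572150, minus strand) encodes the A cyclin of dividing somatic cells, which acts in DNA replication and in the entry into mitosis. It had 137, 140 and 141 CPM at E8, 120, 105 and 137 CPM at E8.5, 153, 180 and 187 CPM at E9.5, and 155, 125 and 133 CPM at E14. All E9.5 libraries were above all E8 and E8.5 libraries, and E14 replicate 1 overlapped the E9.5 range. The rise at E9.5 against E8.5 was 0.52 ± 0.11 (edgeR adjusted p = 0.00427). The fall at E14 against E9.5 was smaller, -0.33 ± 0.11 (edgeR adjusted p = 0.0285), and was lost without any 1 of E9.5 replicates 2 and 3 and E14 replicates 2 and 3 (edgeR adjusted p = 0.073 to 0.104). At E14 against E8 the levels differed by -0.02 ± 0.11 (edgeR adjusted p = 0.917).

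The B-type cyclins carry CDK1 into mitosis. Mice without cyclin B1 die early as embryos, and mice without cyclin B2 are viable. Ccnb1 (ENSMUSG00000041431.16, chromosome 13, 100778650 to 100786570, minus strand) had 139, 145 and 143 CPM at E8, 123, 102 and 141 CPM at E8.5, 159, 179 and 179 CPM at E9.5, and 89.7, 74.9 and 78.1 CPM at E14. The E9.5 libraries were above and the E14 libraries below all others. It rose by 0.50 ± 0.11 at E9.5 against E8.5 (edgeR adjusted p = 0.00546). At E14 it fell by 1.09 ± 0.11 against E9.5 (edgeR adjusted p = 9.37e-06) and by 0.81 ± 0.11 against E8 (edgeR adjusted p = 5.96e-05).

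Ccnb2 (ENSMUSG00000032218.7, chromosome 9, 70407689 to 70421554, minus strand) had 38.2, 38.5 and 36.5 CPM at E8, 33.1, 27.3 and 34.3 CPM at E8.5, 41.6, 50.3 and 53.2 CPM at E9.5, and 42.9, 37.3 and 38.5 CPM at E14. The E9.5 libraries were above those of E8 and E8.5, while E14 overlapped both E8 and E9.5. Its rise at E9.5 against E8.5, 0.62 ± 0.11 (edgeR adjusted p = 0.00128), was the largest called rise among the 8 in that interval. The fall at E14 against E9.5 was -0.29 ± 0.11 (edgeR adjusted p = 0.0394), and it was lost in 7 of the 12 fits that left out 1 library (edgeR adjusted p = 0.0506 to 0.152). At E14 against E8 the value was 0.07 ± 0.11 (edgeR adjusted p = 0.601).

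By interval, 0 of the 8 genes were called at E8.5 against E8, where 0.891% of all genes tested were called higher and 0.291% lower (1.18% in either direction). At an unadjusted p under 0.05 in edgeR 3 were lower (Ccnb2, Ccnd1 and Ccne2), beside 8106 of the 28846 genes tested in either direction. DESeq2 called 1 lower, Ccnd1, beside 17.6% of all genes it tested in either direction. Without E8.5 replicate 3, edgeR called 5 lower (Ccna2, Ccnb1, Ccnb2, Ccnd1 and Ccne2, by 0.34 to 0.55 on the log2 scale) and 1 higher (Ccnd2), while in that fit 29.9% of all genes were called in either direction. At E9.5 against E8.5 5 of 8 were higher and 0 lower, beside 18.4% of all genes higher and 18.5% lower (37.0% in all), and the median change of the 8 was 0.46, beside -0.03 for all genes. At E14 against E9.5 0 were higher and 5 lower, beside 25.4% and 24.6% of all genes (50% in all), and the medians were -0.53 and 0.02. That count of 5 was 3 without E9.5 replicate 2 or 3, or without E14 replicate 2 or 3, in fits that called 41.7% to 42.7% of all genes in either direction. At E14 against E8 2 were higher and 3 lower, beside 31.5% and 29.2% of all genes (60.7% in all), and the medians were 0.02 and 0.04. The cardiomyocyte, fibroblast, endothelial and macrophage marker sums had their highest medians at E14, as did the erythroid sum, of whose 8 markers 3 were higher and 4 lower at E14 against E9.5. Of the 8 cardiomyocyte markers 4 were higher and 1 lower in that comparison.

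**Figure D3:**
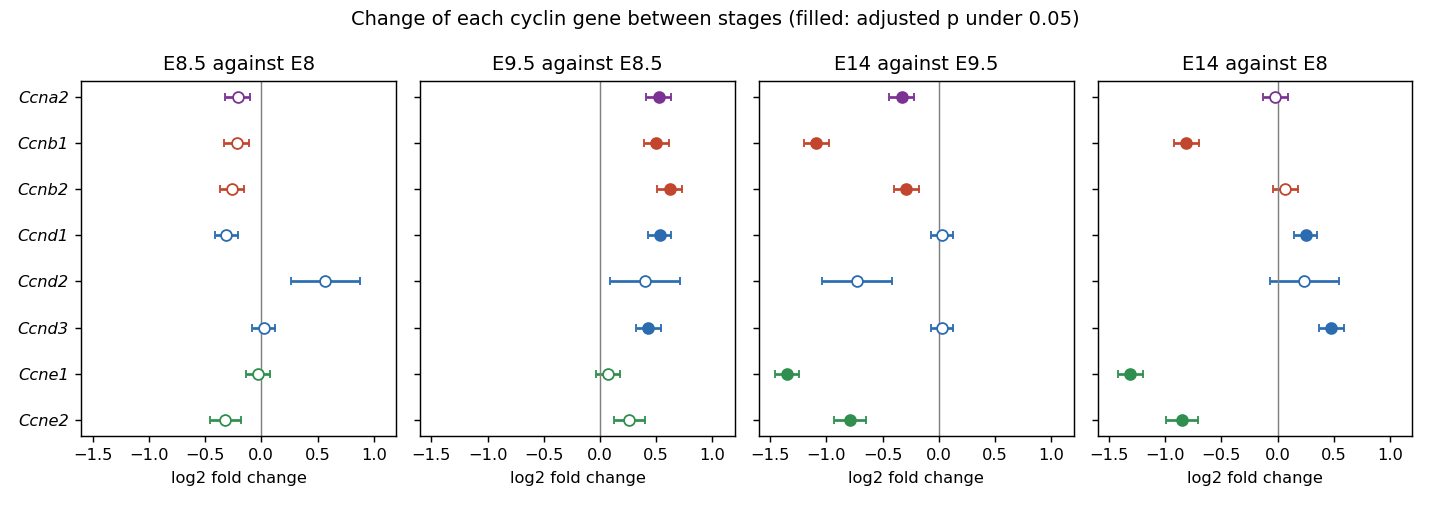
Log2 fold change (horizontal axis, later over earlier stage) of each cyclin gene in the 3 intervals and over the whole span, with bars of 1 SE and filled points at an edgeR adjusted p under 0.05. All filled points lie right of 0 at E9.5 against E8.5 and left of 0 at E14 against E9.5, and the open Ccnd2 points have the widest bars.

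A comparison of E9.5 with E8, which passes over E8.5, was added after the data were seen. In it 3 of the 8 genes were higher and 0 lower, beside 13.6% and 11.3% of all genes (24.8% in all). Ccnb2 was 0.36 ± 0.11 (edgeR adjusted p = 0.0286), Ccnd2 0.97 ± 0.31 (edgeR adjusted p = 0.041) and Ccnd3 0.45 ± 0.11 higher (edgeR adjusted p = 0.00886). The mean of Ccnd2 was 256 ± 5.25 CPM at E9.5, against 131 ± 5.67 CPM at E8 (SD, n = 3 each). Ccna2 (0.31 ± 0.11, edgeR adjusted p = 0.0608) and Ccnb1 (0.28 ± 0.11, edgeR adjusted p = 0.0933) did not pass the test. The Ccnd2 call was lost with no filter on low counts (edgeR adjusted p = 0.101) and in 10 of the 12 fits with 1 library left out (0.0553 to 0.111), and the Ccnb2 call in 5 of them (0.0698 to 0.128). The count of 3 was 5 in a fit of E8 and E9.5 alone, 6 without E8.5 replicate 3, and 1 without any 1 of the E8 libraries or of E9.5 replicates 2 and 3. The share of all genes called in either direction was 36.8%, 31.7% and 15.5% to 17.4% in these fits.

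Ratios of related genes within a library do not depend on how libraries are scaled. The log2 ratio of Ccnb1 to Ccnb2 counts was 1.86, 1.91 and 1.96 in the E8 libraries, 1.89, 1.90 and 2.04 in the E8.5 libraries, 1.93, 1.83 and 1.75 in the E9.5 libraries, and 1.06, 1.01 and 1.02 in the E14 libraries. The first 3 stages overlapped and the ratio was lower in every E14 library, with an E14 mean 0.88 below that of E8. An exact permutation test of the 4-stage F statistic over 15400 assignments gave p = 0.00591 (adjusted p = 0.0118 over the 4 ratios tested), and the same test on ranks an adjusted p of 0.0765. The log2 ratio of Ccne1 to Ccne2 was -1.29, -1.09 and -1.10 in the E8 libraries, -0.77, -0.88 and -0.94 in the E8.5 libraries, -1.08, -1.13 and -0.99 in the E9.5 libraries, and -1.75, -1.53 and -1.55 in the E14 libraries (exact permutation p = 0.00026, adjusted p = 0.00104). It was highest at E8.5 and lowest at E14, and neither of these stages overlapped another. Ints8, on the other strand, shares 41.9% of the Ccne2 interval. The strand setting of the counting is not given, so reads from the shared stretch may have been counted for either gene. The part of Ints8 in the Ccne1 to Ccne2 ratio was not tested.

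Both ratios to Ccnd2 spread widely at E8.5. The log2 ratio of Ccnd1 to Ccnd2 was -1.46, -1.23 and -1.31 in the E8 libraries, -2.94, -2.35 and -0.88 in the E8.5 libraries, -2.25, -2.09 and -1.92 in the E9.5 libraries, and -1.26, -1.44 and -1.26 in the E14 libraries. The E9.5 libraries lay below the E8 and E14 libraries, and E8.5 spanned all of them. The exact permutation test of the 4 stages gave an adjusted p of 0.193 for this ratio and for that of Ccnd3 to Ccnd2, and 0.000779 and 0.000649 without E8.5 replicate 3.

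**Figure D4:**
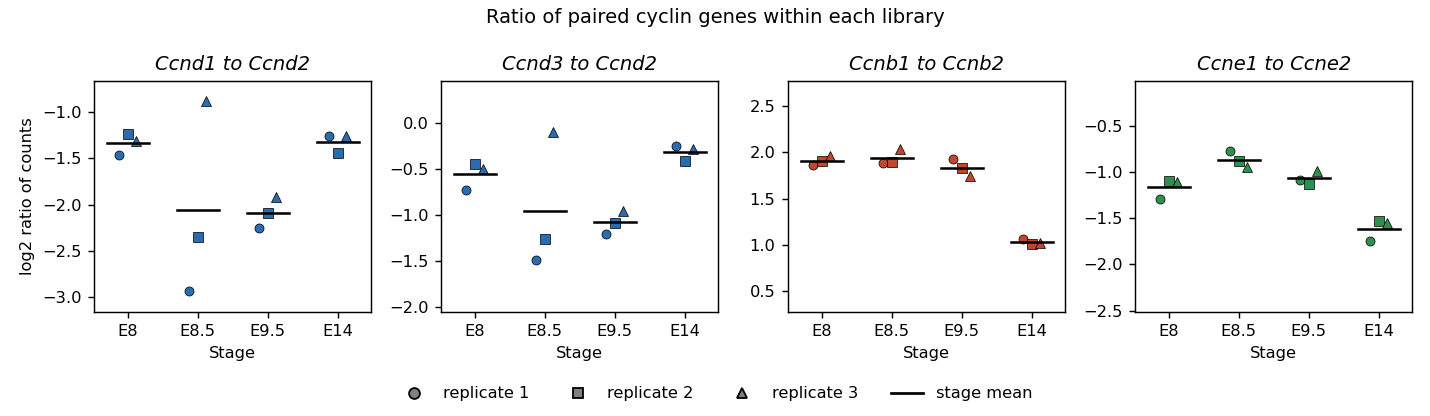
Log2 ratio of counts (vertical axis) of 4 pairs of related cyclin genes within each library, by stage, with 1 symbol for each replicate and a bar at the stage mean. Ccnb1 to Ccnb2 lies near 1.9 in the first 3 stages and at 1.01 to 1.06 at E14, and Ccnd1 to Ccnd2 at E8.5 runs from -2.94 to -0.88.

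Levels of different genes were compared per kilobase of annotated exon (CPM per exon kb). Ccna2 had the highest mean at each stage, with 34.1 ± 0.504 in E8 tissue, 29.5 ± 3.87 in E8.5 tissue, 42.4 ± 4.41 in E9.5 tissue and 33.7 ± 3.69 in E14 tissue (CPM per exon kb, SD, n = 3 each). Ccnb1 lay within the spread of Ccna2 at E8.5 (28.9 ± 4.66) and at E9.5 (40.9 ± 2.73 CPM per exon kb). At E8 Ccnb1 followed at 33.7 ± 0.765, also within the spread of Ccna2, then Ccnb2 (24.7 ± 0.684), Ccne2 (19.3 ± 0.493) and Ccnd2 (13.9 ± 0.602). Ccne1 (11.3 ± 0.614), Ccnd1 (11 ± 0.478) and Ccnd3 (10.1 ± 0.626 CPM per exon kb) came last at E8, with overlapping SD ranges of neighbours. At E14 the order was Ccna2, Ccnb2 (25.9 ± 1.93), Ccnb1 (19.2 ± 1.84), Ccnd2 (16.4 ± 0.81), Ccnd3 (14.1 ± 0.135), Ccnd1 (13.1 ± 0.315), Ccne2 (10.7 ± 1.62) and Ccne1 (4.56 ± 0.372 CPM per exon kb), and no SD ranges of neighbours overlapped. Ccnb1 thus made up 42.6% ± 0.5 of the B-type level at E14, against 57.8% ± 0.9 at E8. Ccne1 made up 30.1% ± 1.7 of the E-type level at E14, against 37.0% ± 1.8 at E8. The E-type shares rest on Ccne2 counts. These may include reads of the overlapping gene Ints8 from the shared stretch, since the strand setting of the counting is not given. Within the D type, Ccnd2 held 39.7% ± 2.2 in E8 tissue, 49.2% ± 14.9 in E8.5 tissue, 50.6% ± 2.5 in E9.5 tissue and 37.6% ± 1.5 in E14 tissue (all SD, n = 3). The order and the shares depend on the length used: per kilobase of the whole gene interval Ccnb2 was seventh at E8, and Ccna2 and Ccnb1 were first and second at all stages. At E14 Ccnb1 had 10.2 CPM per kilobase of that interval, against 2.85 for Ccnb2. In counts Ccnb1 was 2.01 to 2.09 times Ccnb2 in the E14 libraries.

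Several of the 8 share a stretch of genome with a gene on the other strand. The strand setting of the counting is not given in the sources used here. Reads from a shared stretch may thus have been counted for either gene. Exosc9, a subunit of the RNA exosome, shares 863 bases with Ccna2 and had 0.382 to 0.418 of its counts in every library. It moved as Ccna2 did, by 0.58 ± 0.12 at E9.5 against E8.5 (edgeR adjusted p = 0.00291) and -0.41 ± 0.12 at E14 against E9.5 (edgeR adjusted p = 0.0123). Ints8, of the Integrator complex, shares 41.9% of the Ccne2 interval, had 1.26 to 1.86 times its counts and changed by -0.46 ± 0.07 at E14 against E9.5 (edgeR adjusted p = 0.00019). Oraov1 shares 17.7% of the Ccnd1 interval and was 0.38 ± 0.09 higher at E14 against E8 (edgeR adjusted p = 0.00321). The antisense genes Gm43126 and 9330179D12Rik had 0.118 to 0.189 and 0.0812 to 0.276 of the Ccnd2 counts. Gm43126 fell from replicate 1 to 3 at E8.5 as Ccnd2 did (36.1, 23.2 and 13.2 CPM), while 9330179D12Rik had 24.3, 20.1 and 24.3 CPM. At E9.5 against E8.5 they rose by 0.95 ± 0.26 and 0.35 ± 0.08 (edgeR adjusted p = 0.0143 and 0.00478). Bysl shares 0.4% of the Ccnd3 interval. It changed by -0.39 ± 0.09 at E14 against E9.5 (edgeR adjusted p = 0.00457), where Ccnd3 changed by 0.03 ± 0.10. No overlapping gene was found for Ccnb1, Ccnb2 or Ccne1, and the pseudogene copies Ccnb2-ps (67 to 120 counts) and Ccnd3-ps (29 to 82 counts) were low beside their parent genes.

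Among the 8, the profiles of Ccna2 and Ccnb2 were closest, with a root-mean-square (RMS) difference of 0.066 between their centred log2 CPM over the 12 libraries, and Ccnb1 was closer to Ccne2 (0.155) than to Ccnb2 (0.382). Of 10612 other coding genes, the most alike to Ccnb1 were Ran (the GTPase of nuclear transport), Pno1 and Nme1 (RMS 0.046 to 0.049). To Ccne2 they were Fbxo5 (an inhibitor of the anaphase-promoting complex), Srsf7 and Srsf1 (splicing factors, RMS 0.070 to 0.073). Ccne1 was closest to Abcb6, Thop1 and Nolc1 (0.060 to 0.084), Ccnb2 to Tceb1, Pnpla7 and Eif1ax (0.054 to 0.059) and Ccnd3 to Ap1s1, Abcb8 and Actc1, the cardiac actin gene (0.049 to 0.069). Ccna2 was closest to its overlapping neighbour Exosc9 (0.038), then to Rabggtb and Psmb1 (0.055 and 0.056), and Ccnd1 to Rnaseh2a, Eny2 and its neighbour Oraov1 (0.060 to 0.065). Ccnd2 had no gene as near: Ogdhl, Ntf3 (a neurotrophin) and Tnfrsf19 lay at 0.236 to 0.266. The libraries used include those of E8.5, where Ccnd2 ran from 88.1 to 299 CPM, and the part of that spread in its distances was not tested. These distances describe the libraries and were not tested.

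The rest of the cyclin machinery was counted on 7 lists of 86 genes, of which 85 passed the filter on low counts (Ccno did not). At E8.5 against E8 0 were called by edgeR. At E9.5 against E8.5 25 were higher and 15 lower, at E14 against E9.5 16 were higher and 48 lower, and at E14 against E8 18 were higher and 46 lower, with medians of 0.12, -0.29 and -0.28. The shares of all genes called in these comparisons are those given above for the 8 cyclin genes.

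Of the CDK partners and the CDK-activating kinase (9 genes), 5 rose and 1 fell at E9.5 against E8.5, and 2 rose and 6 fell at E14 against E9.5. Cdk1, the kinase of the B cyclins, rose at E9.5 (126 CPM, against 92.9 CPM at E8.5, log2 change 0.44 ± 0.09, edgeR adjusted p = 0.00305), as did Cks2, a small CDK-binding subunit (0.70 ± 0.12, edgeR adjusted p = 0.00137). Mnat1, of the CDK-activating kinase, fell to 47.9 CPM at E9.5, against 68.5 CPM at E8.5 (-0.52 ± 0.14, edgeR adjusted p = 0.0129). At E14 Cks1b (31.2 CPM, against 56.8 CPM at E9.5) and Cks2 (33.3 CPM, against 49.8 CPM) fell. Cdk6, a partner of the D cyclins, rose at E14, to 87.6 CPM against 55.6 CPM at E9.5 (0.66 ± 0.17, edgeR adjusted p = 0.0076). Cdk4, the other such partner, was lower at E14, with 186 CPM against 261 CPM at E8 (-0.49 ± 0.10, edgeR adjusted p = 0.00121).

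Of 7 CDK inhibitors, 4 were higher and 2 lower at E14 against E8, beside 31.5% and 29.2% of all genes. Cdkn1c (p57), the most abundant of them by CPM and named after its values were seen, fell to 197 CPM at E14, against 583 CPM at E8 (-1.56 ± 0.12, edgeR adjusted p = 4.62e-07). Cdkn2c (p18, an inhibitor of CDK4 and CDK6) had 14.7 CPM at E14, against 1.05 CPM at E8, a log2 change of 3.81 ± 0.19 (edgeR adjusted p = 1.69e-08). Cdkn1a (p21) had 5.16 CPM at E14, against 1.15 CPM at E8 (2.17 ± 0.20, edgeR adjusted p = 1.62e-06). Cdkn2a was near the limit of detection, with 0.0524 CPM at E14 and 0.256 CPM at E8 (-2.23 ± 0.40, edgeR adjusted p = 0.000428).

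Pocket proteins, E2F factors and their partners (17 genes) had 4 higher and 9 lower at E14 against E8. Mybl2, the B-MYB factor that activates genes of G2 and mitosis, fell to 12 CPM at E14, against 56.0 CPM at E8 (-2.23 ± 0.10, edgeR adjusted p = 1.03e-08). Rbl2 (p130, a pocket protein of resting cells) had 29.4 CPM at E14, against 7.65 CPM at E8 (1.94 ± 0.08, edgeR adjusted p = 6.81e-09). E2f2 also rose, to 20.5 CPM at E14, against 3.32 CPM at E8 (2.63 ± 0.25, edgeR adjusted p = 3.52e-06).

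Of 5 genes that set the inhibitory phosphorylation of CDKs, Cdc25b, a phosphatase that activates CDK1, rose to 28.1 CPM at E14, against 4.80 CPM at E8 (2.55 ± 0.22, edgeR adjusted p = 1.24e-06). Its relatives Cdc25a (-0.73 ± 0.09, edgeR adjusted p = 2.17e-05) and Cdc25c (-0.61 ± 0.06, edgeR adjusted p = 4.58e-06) fell, which made 1 higher and 3 lower in that comparison. Of 19 genes of cyclin degradation, 3 were higher and 9 lower at E14 against E8. Skp2, the F-box protein that marks p27 for breakdown, fell by 0.81 ± 0.07 (edgeR adjusted p = 1.01e-06), and Fbxo4, reported to target cyclin D1, rose by 1.10 ± 0.13 (edgeR adjusted p = 1.92e-05).

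Of 14 other cyclins tested, 4 were higher and 8 lower at E14 against E8. Ccng1, a target of p53, rose to 142 CPM at E14, against 33.4 CPM at E8 (2.09 ± 0.15, edgeR adjusted p = 2.55e-07). Ccnf, an F-box cyclin of G2, fell to 23.9 CPM at E14, against 50.2 CPM at E8 (-1.07 ± 0.08, edgeR adjusted p = 3.48e-07). Ccna1, the germ line relative of Ccna2, was at 0.443 CPM at E14 and 0.123 CPM at E8.

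The 14 proliferation markers had 5 higher and 0 lower at E9.5 against E8.5, 0 higher and 13 lower at E14 against E9.5 (median -0.77), and 0 higher and 11 lower at E14 against E8 (median -0.60). Mcm5, a subunit of the replicative helicase, had 70.4 CPM at E14, against 137 CPM at E9.5, and Plk1, a mitotic kinase, 19.7 CPM at E14, against 39.5 CPM at E9.5. Mki67 was not called in either E14 comparison, with 381 CPM at E14 and 349 CPM at E8 (0.13 ± 0.13, edgeR adjusted p = 0.419). Pcna (-0.31 ± 0.13) and Birc5 (-0.16 ± 0.10) were the others not called at E14 against E8 (edgeR adjusted p = 0.0579 and 0.162).

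**Figure D5:**
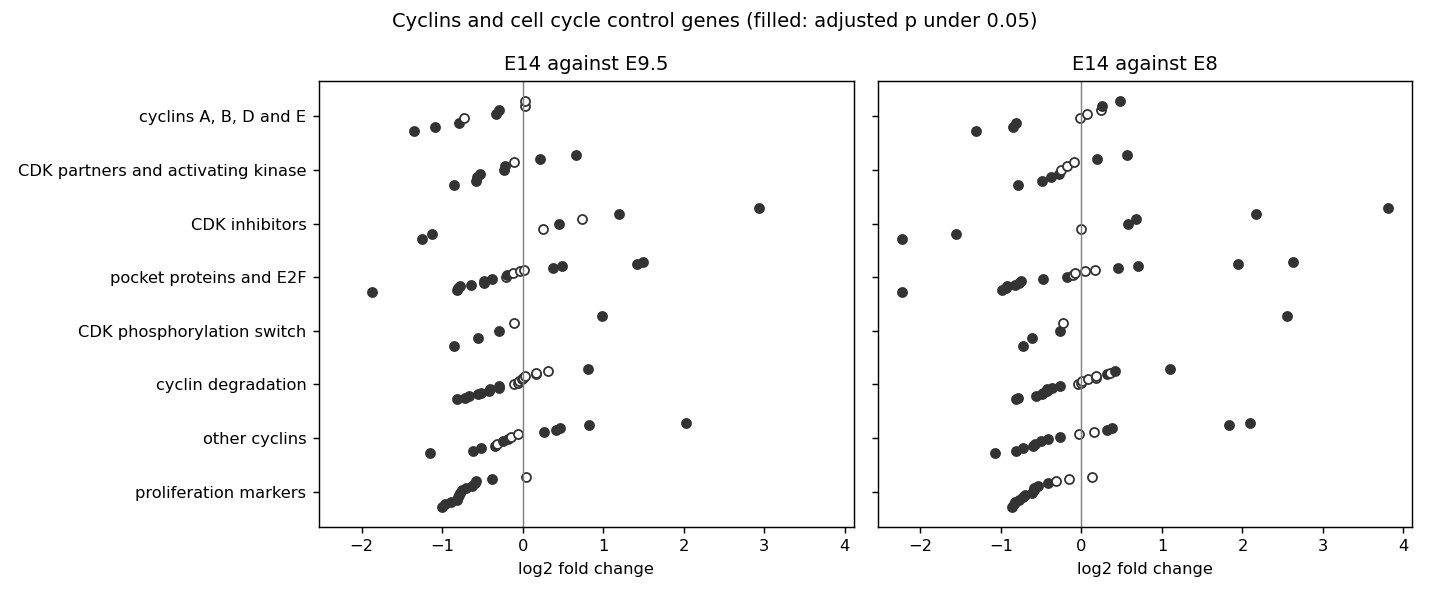
Log2 fold change (horizontal axis) of the 8 cyclin genes and of the genes of 7 cell cycle lists at E14 against E9.5 (left) and against E8 (right), 1 point a gene, filled at an edgeR adjusted p under 0.05, spread vertically within a list by rank. Proliferation markers lie left of 0 except Mki67, while CDK inhibitors run from -2.23 to 3.81 at E14 against E8.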

How the data were processed

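RNA-seq of 12 libraries (3 at each of 4 stages) was used. The values deposited by the authors are raw counts, whole numbers of reads for each gene and library. The submitters' processing notes name STAR 2.5.0 and Cufflinks 2.2.1 and the builds hg38, mm10 and GRCm38, without roles. How reads were assigned to genes (tool, strand, annotation release) is not given in the sources used here. Coordinates are those of the table, and exon lengths and strands came from GENCODE M21.

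In R 4.3.3, edgeR 4.0.16 kept 28846 genes (filterByExpr), scaled them by TMM (factors 0.913 to 1.07) and fitted 1 robust quasi-likelihood model with a mean per stage (common dispersion 0.0362). Each comparison was tested by a quasi-likelihood F-test, with Benjamini-Hochberg adjustment over all genes tested. Ratios used log2 of counts plus 0.5. Likeness was measured over coding genes with a mean of at least 5 CPM. Tables and figures used Python 3.11, pandas 2.3.3, numpy 2.4.6 and matplotlib 3.10.9. The scripts were tested on simulated data.

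All 8 cyclin genes are named, and of each list up to 3 called genes per comparison with the largest change, and 3 genes alike to each cyclin. The members and lists were chosen with earlier results of these data known. E9.5 against E8 was added after seeing the data. Alternatives were RLE and upper-quartile factors, other filters, small structural RNA genes left out, an adjustment for gene span, a replicate block, separate fits of each pair of stages, DESeq2 1.42.0, and each library left out in turn. Since the labels do not state separate embryos or cultures for the replicates, the p-values rest on the spread among these libraries, and that spread may be technical.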

Additional observations from a re-analysis of the deposited data

How the results depend on the processing

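The 8 genes' calls of higher at E9.5 against E8.5 (5) and of lower at E14 against E8 (3) stayed within 1.5 times under every alternative run. In these fits 19.6% to 48.4% of all genes were called in either direction at E9.5 against E8.5, and 37% to 69.8% at E14 against E8. At E8.5 against E8 the counts were 0 to 1 higher and 0 to 5 lower with 1 library left out, and 1 lower with DESeq2. Beside these, 0% to 29.9% of all genes were called in either direction with 1 library left out, and 17.6% with DESeq2. The count lower at E14 against E9.5 ran from 3 to 6 with 1 library left out, beside 41.7% to 54.9% of all genes in either direction. The count higher at E14 against E8 (2) was 1 with RLE factors (60.6% of all genes called in either direction), no filter (37%) and small structural RNA genes left out (62.7%). It was also 1 with the span adjustment (62.2%), with span and replicate block (61%) and with DESeq2 (49.5%), and 1 to 2 with 1 library left out (52.6% to 64.6%). For E9.5 against E8 the count higher was 5 in the fit of the compared stages alone (36.8%) and 1 to 6 with 1 library left out (15.5% to 31.7%). The Ccnb1 to Ccnb2 ratio, -0.88 at E14 against E8, had an exact permutation adjusted p of 0.0765 with ranks. With 1 library left out the same difference was -0.06 to 0.07 for Ccnd1 to Ccnd2, against 0.01 with all, and 0.16 to 0.30 for Ccnd3 to Ccnd2, against 0.24.

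The uncalled values near 0 that changed sign were as follows. Ccnd3 at E8.5 against E8 (0.02) was -0.02 without small structural RNA genes, -0.20 with the span adjustment, -0.21 with span and block, -0.000615 with DESeq2 and -0.12 to 0.08 with 1 library left out. Ccnd3 at E14 against E9.5 (0.03) was -0.21 with the span adjustment, with and without the block, and -0.04 to 0.08 with 1 library left out. Ccne1 at E8.5 against E8 (-0.03) was 0.03 with span, 0.02 with span and block and -0.22 to 0.07 with 1 library left out, and at E9.5 against E8.5 (0.07) it was -0.03, -0.02 and -0.04 to 0.24. Ccnd1 at E14 against E9.5 (0.03) was -0.00449 without a filter, -0.00374 without small structural RNA genes and -0.06 to 0.09 with 1 library left out. With 1 library left out, Ccna2 at E14 against E8 ran from -0.14 to 0.02, Ccnb2 from -0.03 to 0.08, and Ccne1 at E9.5 against E8 from -0.01 to 0.06. The cause was not tested.

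Replicate numbers did not pair the libraries: same-numbered libraries of different stages correlated at -0.084 to 0.134 in their deviations from the stage means (18 pairs), and 4 of 12 correlated best with their own number. With a replicate block 4 of the 8 genes were lower at E14 against E9.5, beside 48.4% of all genes called in either direction. Ccnb2 was not called there (edgeR adjusted p = 0.0552), and the Ccnb1 to Ccnb2 ratio (-0.88) had an exact permutation adjusted p of 0.0521. The other counts of calls were those of the fit without the block.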
